A study of Mus musculus with 2 samples.

Results

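The 8 chemokine genes *Ccl17*, *Ccl22*, *Ccl24*, *Cxcl13*, *Cxcl16*, *Cxcl10*, *Cxcl1* and *Cxcl2* were examined in leukocytes of the mouse heart. They are 8 of the 27809 genes in the matrix and were found by their symbols. They had been selected because of their measured levels in these cells, so differences between groups and between source cells are given as a description, without a test. CD45+ cells, which are leukocytes, were isolated from the hearts 1 week after surgery and their RNA was barcoded cell by cell in the microwells of a BD Rhapsody system and read with the TAS-Seq protocol. A total of 5 hashtag groups were pooled in 1 library. WT sham and CD3ϵ-/- sham mice had the sham operation. WT TAC and CD3ϵ-/- TAC mice had TAC, a constriction of the transverse aorta that puts the left ventricle under pressure overload. A further group of WT mice had TAC and repeated injections of an anti-CD8 antibody, and is called here the group labelled CD8-depleted TAC. All were male mice aged 8 weeks, with C57BL/6N given as the strain in the labels. CD3ϵ-/- mice lack T cells from birth, since CD3ϵ is a part of the T cell receptor complex. The sources used here do not give the number of mice pooled per group. Each group was 1 sample, so neither a spread between mice nor a p-value could be computed.

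Chemokines are small secreted proteins that direct leukocytes along a gradient through receptors on the target cell. Ccl17 and Ccl22 bind Ccr4 on T cells, Cxcl13 binds Cxcr5 on B cells, Cxcl10 binds Cxcr3 on activated T and NK cells, and Cxcl16 is made as a membrane protein that binds Cxcr6 and is shed by the proteases Adam10 and Adam17. Ccl24, also called eotaxin-2, binds Ccr3 on eosinophils. Cxcl1 and Cxcl2 bind Cxcr2 and attract neutrophils, so a heading of lymphocyte- and eosinophil-attracting chemokines covers 6 of the 8 genes and not these.

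After the filters, 1000 cells of WT sham, 835 of CD3ϵ-/- sham, 1615 of WT TAC, 919 of CD3ϵ-/- TAC and 894 of CD8-depleted TAC were kept, and values follow this order where no group is named. Groups held 91899777 to 208758777 reads, and the median cell 75442 to 117788 reads. *Ptprc*, which encodes CD45, was read in 97.7% of the cells. No cell barcode was repeated. As a check of the genotypes, the T cell gene *Cd3g* was at 45.6, 0.555, 17.5, 0.0661 and 22.5 CPM, which are reads of a gene scaled to an equal total of reads. *Cd3e*, the gene disrupted in these mice, was at 17.8, 3.73, 10.8, 5.64 and 13.6 CPM, lower in the CD3ϵ-/- groups but not absent. In CD8-depleted TAC *Cd8a* was 6.55 and *Cd8b1* 7.74 CPM, beside 7.40 and 10.7 CPM in WT TAC, so the RNA did not show the depletion that the label names. These levels are low, and the paper counted heart CD4+ and CD8+ T cells by flow cytometry, including after CD8 depletion, which is another measure. The values of CD8-depleted TAC are given below as those of the cells so labelled, and not as those of hearts without CD8+ T cells. CPM were computed from reads and not molecules, and all intervals are 95% intervals for counting error alone, which is understated because reads of 1 molecule are not independent.

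Source cells were set by gates on the CPM of each cell, in a fixed order. Cells with *Xcr1* at 50 or *Cd209a* at 100 CPM, genes of both kinds of conventional dendritic cells, came first. Cells with *Csf1r* at 100 and *Lyz2* at 1000 CPM, genes of monocytes and macrophages, were then divided by *Saa3* (1000), *Retnla* (500), *Lyve1* (100) and *Ly6c2* (500 CPM). The classes held 159 *Xcr1*, 468 *Cd209a*, 30 *Saa3*, 143 *Retnla*, 202 *Lyve1* and 530 *Ly6c2* cells, then 2567 other *Csf1r Lyz2* cells, while 1164 cells were outside the gates. Genes that the gates did not use were checked. *Clec9a* was 305 CPM in the *Xcr1* class, *Clec10a* 268 CPM in the *Cd209a* class, *Folr2* 886 CPM in the *Lyve1* class and *Ccr2* 2769 CPM in the *Ly6c2* class. From the same marker lists, *Irf8*, *Wdfy4*, *Mgl2*, *Cd163*, *Plac8* and *Ace* were also highest in their own class. The margin was small for *Mgl2* over the *Retnla* class (1185 against 1065 CPM) and for *Ace* over other *Csf1r Lyz2* cells (82.3 against 66.8 CPM). *Flt3* was instead higher in the *Xcr1* class (315 CPM) than in the *Cd209a* class (106 CPM). *Timd4* was higher in the *Saa3* class (182 CPM) than in the *Lyve1* class (116 CPM). *Ccr2* was also 2087 CPM in the *Retnla* class. The *Saa3* class had *Prg4* at 1829 CPM, *Fcna* at 658, *Icam2* at 214 and *Gata6* at 17.2 CPM, genes of the macrophages of body cavities, each the highest of any class. The class sizes differed between the groups. *Saa3* cells numbered 0, 0, 2, 22 and 6, *Ly6c2* cells were 2.30%, 3.95%, 9.91%, 18.6% and 16.0%, and *Retnla* cells 5.70%, 6.11%, 1.67%, 0.435% and 0.447% of the kept cells. A level summed over a group thus combines how many cells of a class were sampled with how much each holds.

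A limit of the deposited values applies to each of the 8 genes. The rows of the matrix were in 2 stretches, and in the first 609 rows, which hold all 8 chemokines and 4 of the 8 genes of the gates, no value above 0 was under 4 reads. Among the 27200 later rows, 99.5% had a lowest value of 1 read. The lowest value above 0 was 7 reads for *Ccl24*, *Cxcl16* and *Cxcl1*, 15 for *Ccl22*, 16 for *Cxcl10*, 20 for *Ccl17*, 37 for *Cxcl2* and 43 reads for *Cxcl13*. A chemokine listed at 0 in a cell may thus have had a few reads before error correction, and shares of cells with a read are not set beside those of genes from the later rows.

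*Ccl17* and *Ccl22*, both ligands of Ccr4, came from few cells. *Ccl17* was read in 80 of the 5263 cells and *Ccl22* in 60. The genes are neighbours on mouse chromosome 8, *Ccl22* at chr8:94745684-94751388 and *Ccl17* at chr8:94809380-94812038 (GRCm38.p6). The 250 bases before their starts are shown because both were read together in 28 cells, 35.0% of the *Ccl17* and 46.7% of the *Ccl22* cells. RefSeq (GRCm38.p6) placed these windows at chr8:94810203-94810452 and chr8:94745434-94745683, both on the plus strand, and the start of *Ccl17* lies inside the span of its gene. Capitals mark matches, on either strand, to a STAT6 motif (TTCNNNNGAA) in *Ccl17* and to an NF-kB motif (GGGNNNNNCC) in *Ccl22*.
Ccl17: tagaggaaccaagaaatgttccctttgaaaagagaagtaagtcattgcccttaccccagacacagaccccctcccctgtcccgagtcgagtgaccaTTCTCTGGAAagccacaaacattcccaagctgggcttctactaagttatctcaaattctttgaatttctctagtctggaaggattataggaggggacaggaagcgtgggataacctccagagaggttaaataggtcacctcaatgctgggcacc
Ccl22: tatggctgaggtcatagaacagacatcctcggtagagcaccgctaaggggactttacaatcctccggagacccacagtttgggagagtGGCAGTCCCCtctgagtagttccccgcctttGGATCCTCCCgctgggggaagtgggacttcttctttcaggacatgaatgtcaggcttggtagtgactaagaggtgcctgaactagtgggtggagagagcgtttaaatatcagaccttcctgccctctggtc
STAT6 acts downstream of IL-4, and NF-kB downstream of many inflammatory receptors. *Ccl17* held 1 STAT6 match, 154 to 145 bases before the start, and no NF-kB match. *Ccl22* held 2 NF-kB matches, both on the opposite strand, and no STAT6 match. Over 32817 promoters with the same window, 5.85% held the STAT6 motif and 45.8% the NF-kB motif, so an NF-kB match was common. These matches are letters in a sequence and not sites shown to be bound. Of the IL-4 response genes, *Il4ra* was 79.0, 66.6, 132, 185 and 124 CPM and *Stat6* 115, 111, 121, 123 and 124 CPM.

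*Ccl17* was 37.0 CPM in WT sham, 64.1 in CD3ϵ-/- sham, 88.8 in WT TAC, 33.0 after TAC in CD3ϵ-/- mice and 8.05 in CD8-depleted TAC. The WT TAC group was highest and CD8-depleted TAC lowest. The *Cd209a* class gave 38.7% of its reads, from 42 of 468 cells, at 152.8 CPM. Within that class the level was 112, 152, 163, 301.5 and 67.2 CPM, in another order than over all cells. There were 108, 105, 149, 43 and 63 such cells. In CD3ϵ-/- TAC the top cell of the class held 70.2% of its *Ccl17* reads. Without the top cell of the class in each group, its level was 39.3, 72.7, 131, 95.6 and 24.2 CPM. WT TAC was then highest and CD8-depleted TAC lowest, as over all cells. Cells with 3 or more markers of type 2 conventional dendritic cells, a list of which *Ccl17* was no part, gave 26.5% of the reads. *Ccl17* was read in 0 of 530 *Ly6c2*, 0 of 202 *Lyve1* and 0 of 30 *Saa3* cells. The other *Csf1r Lyz2* cells held 39.7% of the reads in WT TAC, where 7 cells gave a level of 67.9 CPM, against 0.419 to 6.03 CPM for this class in the other groups. A single WT TAC cell of this class had 5861 of the 33332 *Ccl17* reads. Without the top cell of each group, the level of *Ccl17* was 24.96, 48.1, 60.8, 18.6 and 3.40 CPM, in the same order of groups.

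*Ccl22* was 73.0 CPM in WT sham, 13.8 in CD3ϵ-/- sham, 52.3 in WT TAC, 16.9 after TAC in CD3ϵ-/- mice and 8.87 in CD8-depleted TAC. The WT sham and WT TAC groups were higher than the others. Outside the gates lay 88.5% of its reads, in 23 cells. Of the reads, 77.1% came from the 27 cells with 3 or more of 5 markers of activated dendritic cells (*Ccr7*, *Fscn1*, *Cacnb3*, *Il4i1* and *Cd200*), which carry antigen to lymph nodes. There were 6, 3, 10, 5 and 3 such cells, and 4, 3, 5, 4 and 2 of them had a *Ccl22* read. Summed over all cells, the 5 markers were all read in each group, at 64.1 to 121 CPM. The median *Ccl22* of these cells was 3558, 565, 45.0, 214 and 191 CPM. Without them *Ccl22* was 24.8, 5.47, 6.80, 1.10 and 6.70 CPM. In CD3ϵ-/- TAC 86.9% of the *Ccl22* reads came from 1 cell, and without it the level was 2.22 CPM. The top 3 cells held at least 50% of all *Ccl22* reads.

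*Ccl24*, the eotaxin, was read mainly in the classes of macrophages. It was 35.8 CPM in WT sham, 20.8 in CD3ϵ-/- sham, 23.1 in WT TAC, 32.7 after TAC in CD3ϵ-/- mice and 19.9 in CD8-depleted TAC, a range of 1.80-fold. The counting intervals of CD3ϵ-/- sham and CD8-depleted TAC overlapped. *Ccl24* was read in 277 cells. In the *Lyve1* class, of the long-lived resident macrophages, 79 of 202 cells had a read and the level was 196 CPM. By group, this class was at 304, 130, 158, 74.4 and 260 CPM, and it held 56.7% of the *Ccl24* reads in WT sham but 6.74% in CD3ϵ-/- TAC, where 17 such cells were sampled. The *Retnla* class was at 86.8 CPM and the *Saa3* class at 84.5 CPM with a read in 13 of 30 cells. The other *Csf1r Lyz2* cells were at 23.2 CPM and gave 41.0% of the reads because of their number. In the *Xcr1* class and outside the gates *Ccl24* was under 1 CPM. One cell gave 38.9% of the reads in CD3ϵ-/- sham, a *Retnla* cell, and 1 cell 27.5% in CD3ϵ-/- TAC, a *Cd209a* cell. Without the top cells the group levels were 33.7, 12.7, 19.4, 23.8 and 17.7 CPM. Only 3 of the 4 eosinophil markers were in the matrix, and no cell had 3 or more of them.

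**Figure D1:**
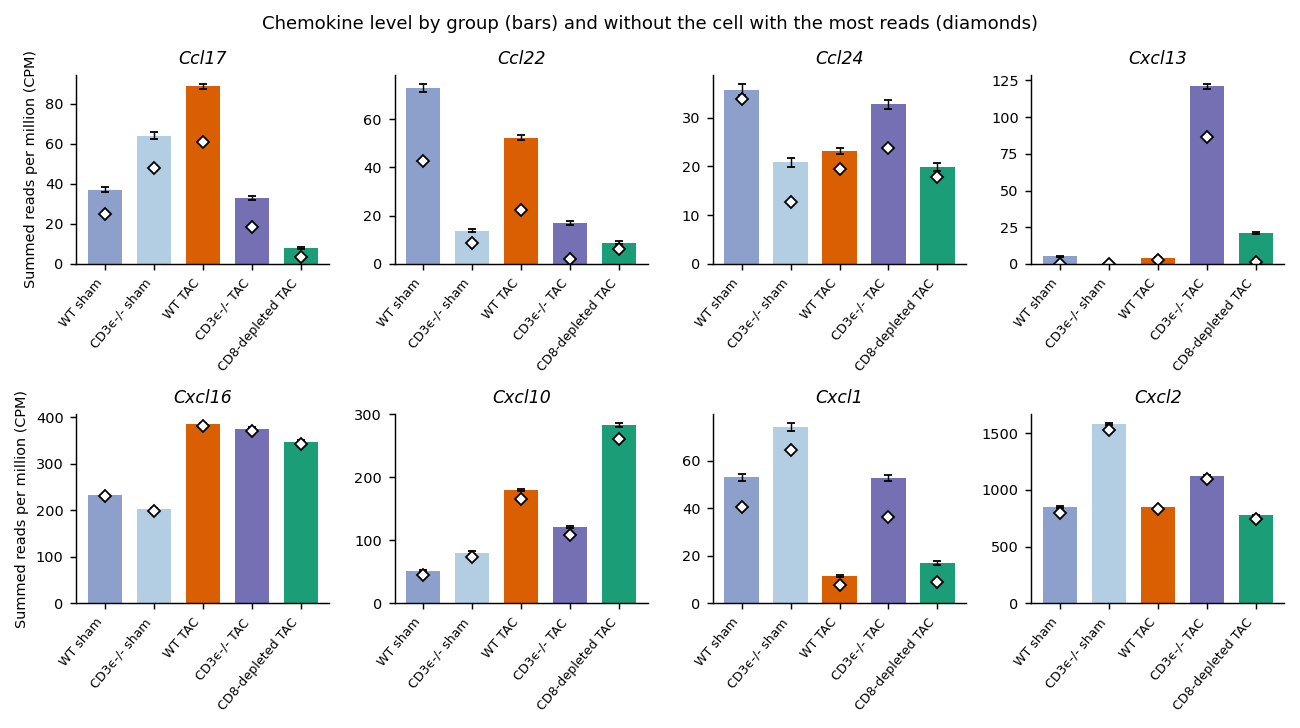
Level of each chemokine in CPM by hashtag group, with 95% Poisson intervals for counting error and diamonds for the level without the cell with the most reads of the gene. *Cxcl13* in CD8-depleted TAC dropped from 21.0 to 1.44 CPM and *Ccl22* in CD3ϵ-/- TAC from 16.9 to 2.22 CPM without that cell, while *Cxcl16* and *Cxcl2* hardly moved.

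*Cxcl13*, the B cell chemokine, was read in 18 cells, 12 of them in CD3ϵ-/- TAC. It was 5.13 CPM in WT sham, 4.12 in WT TAC, 120.9 after TAC in CD3ϵ-/- mice and 21.0 in CD8-depleted TAC, and no read was listed in CD3ϵ-/- sham. The cells with a read numbered 1, 0, 3, 12 and 2. An upper limit for the 0 of 835 cells and a fold over that sham group without added CPM are not given. The reason is that values under 43 reads were not seen for this gene in any cell. The *Saa3* class gave 66.8% of the reads, at 1412 CPM, from 9 of its 30 cells, while no *Saa3* cell was sampled in either sham group. The class was at 1384 CPM over 22 cells in CD3ϵ-/- TAC and at 1732 CPM over 6 cells in CD8-depleted TAC. In this last group 93.1% of the *Cxcl13* reads came from 1 *Saa3* cell, and without it the level was 1.44 CPM, below WT TAC. In CD3ϵ-/- TAC the level without the top cell was 86.6 CPM, and without the whole *Saa3* class it was 40.3 CPM.

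Most of that remainder was 1 cell in the *Cd209a* class, which is the first gate it met. It had *Cxcl13* at 16011 and *Cd209a* at 191 CPM, and *Saa3* above the *Saa3* gate, and whether it was a doublet was not tested. Of the 18 *Cxcl13* cells, 10 had *Saa3* at the gate level, 17 had a read of *Fcna*, 14 of *Arg1*, 9 of *Prg4*, 9 of *Icam2* and 8 of *Gata6*. *Prg4*, *Icam2*, *Gata6* and *Fcna* form the list of cavity macrophage markers, and 24 cells had 3 or more of these, 0, 0, 1, 17 and 6 by group. Those 24 cells held 78.1% of the *Cxcl13* reads. All 4 markers were read in each group, and their sum over all cells was 45.1, 33.9, 27.6, 245.7 and 126 CPM, highest in the groups with the most *Cxcl13*. Whether these cells came from the heart or its surroundings was not tested. Every *Cxcl13* cell also had *Cxcl2* reads and 10 had *Cxcl1* reads. The 5 genes most like *Cxcl13* over the cells, a description since it was read in fewer than 20 cells, were *Alox15* (r = 0.50), *Marco* (0.43), *Prg4* (0.38), *Cd5l* (0.37) and *Fcna* (0.36).

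**Figure D2:**
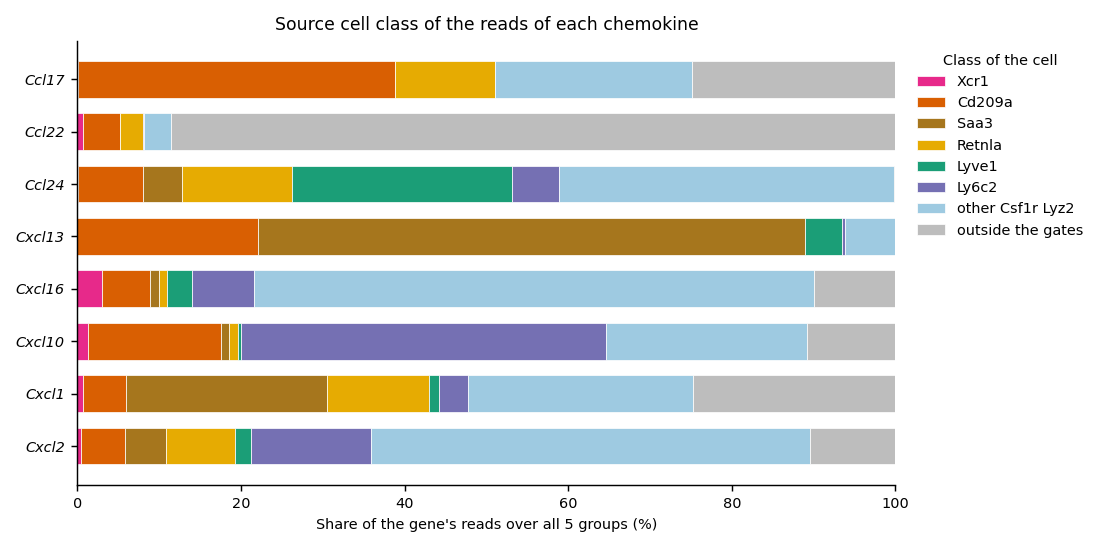
Share of the reads of each chemokine by source cell class, in percent of its reads over all groups. The *Saa3* class holds 66.8% of the *Cxcl13* reads, the cells outside the gates 88.5% of those of *Ccl22*, and the *Ly6c2* class 44.6% of those of *Cxcl10*.

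*Cxcl16* was the most widely read of the 8. It was 232 CPM in WT sham, 202 in CD3ϵ-/- sham, 385 in WT TAC, 375 after TAC in CD3ϵ-/- mice and 347 in CD8-depleted TAC, so that both sham groups were below all TAC groups. A read was found in 43.7%, 42.5%, 59.1%, 60.1% and 56.2% of the cells. Thinned to 34832 reads per cell, in place of medians of 85312 to 128546 reads, the shares were 45.5%, 44.9%, 60.8%, 62.7% and 58.4%. Cells outside the gates with 3 or more B cell markers served as background. Their share was 2.88% (9 of 313), from a median of 57272 reads. Thinned in the same way, these B cell marker cells had 0 reads of *Ccl17*, *Ccl22*, *Ccl24*, *Cxcl13* and *Cxcl1*. Of all 488 cells with 3 or more B cell markers, 427 were outside the gates. Before thinning, 47 of the 488 had a read of *Cxcl16*, 25 of *Cxcl2*, 6 of *Cxcl10*, 3 of *Cxcl1*, 2 of *Ccl17* and 2 of *Ccl24*. The other *Csf1r Lyz2* class held 68.5% of the reads, at 487 CPM, with a read in 1845 of 2567 cells. Within that class the level was 425, 372, 514, 529 and 491 CPM, again lower in the sham groups. The *Ly6c2* class was at 207 CPM, the *Lyve1* class at 273 and the *Xcr1* class at 176.5 CPM. With the class levels of WT sham and the class sizes of WT TAC, as shares of reads, *Cxcl16* would be at 288 CPM, between both measured levels. The same step for the CD3ϵ-/- groups gave 226 CPM. The *Saa3* class, without cells in the sham groups, was counted as 0 in this step. The 226 CPM thus leaves out a class that was at 262 CPM in CD3ϵ-/- TAC. The genes most like *Cxcl16* over 5263 cells were *C1qc*, *C1qa* and *C1qb* of complement (r of 0.55, 0.55 and 0.54), the macrophage gene *Ms4a7* (0.50) and *Lgmn*, a lysosomal protease (0.49). These correlations share the depth of the cells. *Adam10* was 132, 159, 177, 200.1 and 174 CPM and *Adam17* 109, 112, 160, 167 and 159 CPM, and neither was called 2-fold apart in any comparison.

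*Cxcl10*, induced by interferons, was highest in *Ly6c2* cells. It is at chr5:92346638-92348889 on the minus strand. Its promoter window, chr5:92348890-92349139, is shown because its letters can be set beside the interferon genes that were read in the same cells. Capitals mark an interferon-stimulated response element (GAAANNGAAA) and NF-kB matches on either strand.
Cxcl10: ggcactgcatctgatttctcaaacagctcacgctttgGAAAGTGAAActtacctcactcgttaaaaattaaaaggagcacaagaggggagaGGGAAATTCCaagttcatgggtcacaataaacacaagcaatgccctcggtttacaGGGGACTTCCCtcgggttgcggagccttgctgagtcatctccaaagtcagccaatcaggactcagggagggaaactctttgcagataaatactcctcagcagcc
The interferon element lay 213 to 204 bases before the start and was held by 2.97% of the 32817 promoters. The NF-kB matches lay 159 to 150 and, overlapping each other, 104 to 94 bases before it. Over all cells *Cxcl10* was 51.2 CPM in WT sham, 80.6 in CD3ϵ-/- sham, 180 in WT TAC, 121 after TAC in CD3ϵ-/- mice and 283 in CD8-depleted TAC, with no overlap of the counting intervals. The cells with a read were 4.90%, 7.43%, 8.05%, 9.03% and 12.2%. After the same thinning, the shares were 5.50%, 8.03%, 8.51%, 9.52% and 12.6%, against 0.319% in B cell marker cells as background, after 128, 113, 134, 89 and 63 shallower cells were left out.

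The *Ly6c2* class, of inflammatory monocytes, held 44.6% of the *Cxcl10* reads at 563 CPM, from 117 of 530 cells. Its level was 209, 356, 644, 324 and 934 CPM, and it was based on 23, 33, 160, 171 and 143 cells. The CD3ϵ-/- TAC group had more *Ly6c2* cells than WT TAC but a lower summed level of *Cxcl10* in them. Without the top cell of the class these levels were 265 CPM in CD3ϵ-/- TAC and 506 CPM in WT TAC. The share of *Ly6c2* cells with a *Cxcl10* read had the other order, 20.5% in CD3ϵ-/- TAC and 16.9% in WT TAC. The *Cd209a* class was at 174, 213, 195, 156 and 174 CPM, and gave 56.4% of the reads in WT sham against 15.1% in WT TAC. Without the top cell of the *Cd209a* class in each group, its level was 139, 189, 149, 77.4 and 78.1 CPM. The other *Csf1r Lyz2* cells were at 23.3, 28.8, 103, 63.5 and 128 CPM. With the class levels of WT sham and the class sizes of WT TAC, *Cxcl10* would be at 61.1 CPM, again with the *Saa3* class counted as 0. Within the *Ly6c2* class, the 117 cells with *Cxcl10* had *Ifit2* at 1208 CPM against 144.5 in the 413 cells without, *Rsad2* at 1558 against 99.1, *Isg15* at 1516 against 374 and *Irf7* at 1513 against 636.5 CPM. All 4 are interferon-stimulated genes. Over all cells, the 5 genes most like *Cxcl10* were *Rsad2* (r = 0.48), *Ifit1* (0.46), *Ifit2* (0.45), *Ifit3b* (0.45) and *Ifit3* (0.44), which belong to the same response. Summed by group, *Ifit2* was 17.2, 20.3, 129, 159 and 189 CPM and *Irf7* 49.8, 54.5, 237, 345 and 335 CPM. In these sums, which also carry the class sizes, CD3ϵ-/- TAC was above WT TAC, unlike for *Cxcl10*. Within the *Ly6c2* class *Rsad2* was 471 CPM in WT TAC and 386 in CD3ϵ-/- TAC, the order of *Cxcl10*, while *Ifit2* (319 and 404), *Isg15* (479 and 732) and *Irf7* (675 and 1001 CPM) had the other order.

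**Figure D3:**
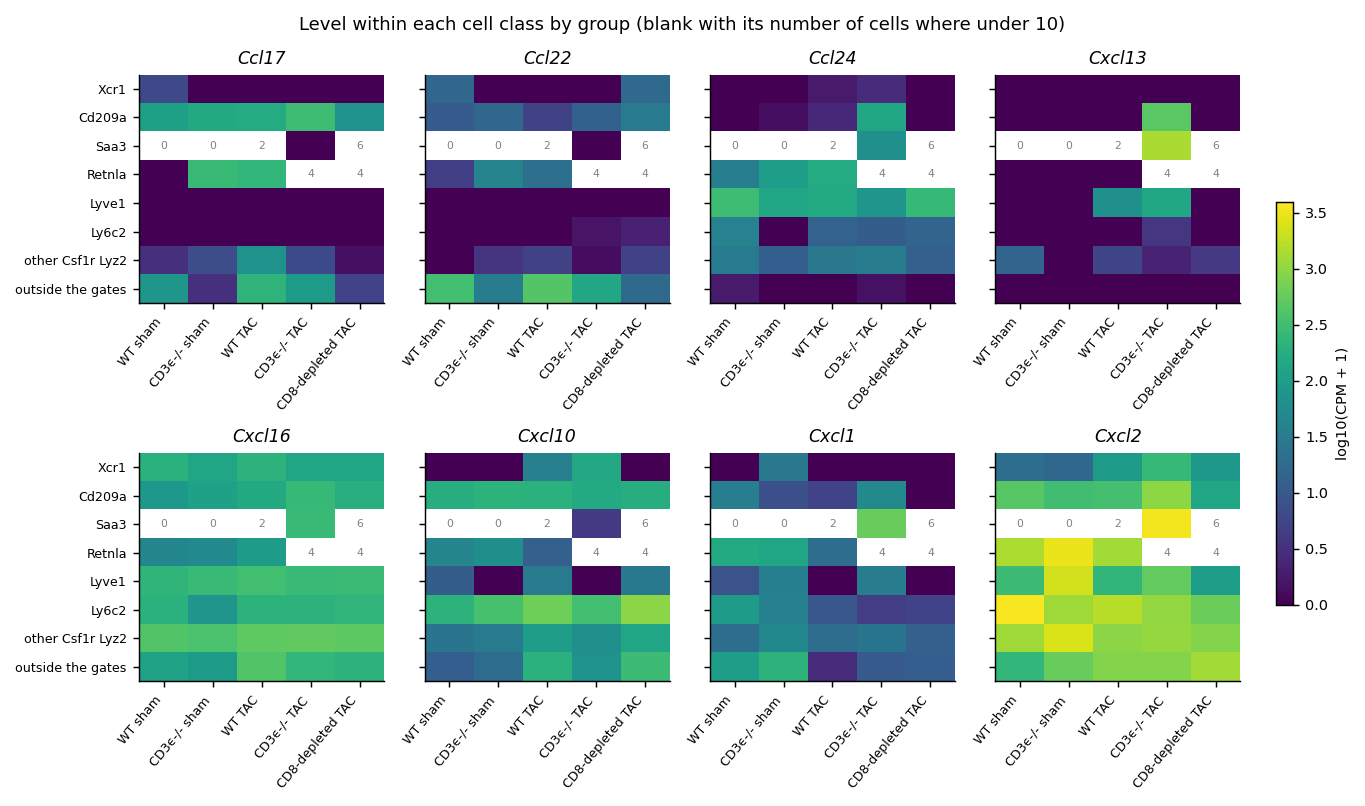
Level of each chemokine by source cell class and hashtag group, as log10(CPM + 1), with the number of cells in place of a colour where a class held fewer than 10 cells. In the *Ly6c2* class *Cxcl10* ranged from 209 to 934 CPM, and in the *Cd209a* class from 156 to 213 CPM. Without the top cell of the class in each group, these ranges were 97.4 to 811 CPM and 77.4 to 189 CPM.

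*Cxcl1* and *Cxcl2*, both ligands of Cxcr2, lie next to each other at chr5:90891245-90893121 and chr5:90903899-90905938. Their promoter windows, chr5:90890995-90891244 and chr5:90903649-90903898 on the plus strand, are shown because both hold pairs of NF-kB matches, in capitals, near the start.
Cxcl1: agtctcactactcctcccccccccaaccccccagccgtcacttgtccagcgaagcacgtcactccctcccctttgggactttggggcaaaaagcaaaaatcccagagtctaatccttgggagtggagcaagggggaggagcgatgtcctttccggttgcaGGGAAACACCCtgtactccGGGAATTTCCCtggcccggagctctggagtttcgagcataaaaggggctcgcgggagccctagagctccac
Cxcl2: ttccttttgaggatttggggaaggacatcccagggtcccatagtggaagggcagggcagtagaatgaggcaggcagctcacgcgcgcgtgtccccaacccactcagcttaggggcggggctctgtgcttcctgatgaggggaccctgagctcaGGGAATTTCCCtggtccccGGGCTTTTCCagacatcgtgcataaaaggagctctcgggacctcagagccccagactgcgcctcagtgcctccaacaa
The matches lay 90 to 80 and 71 to 61 bases before the start of *Cxcl1*, and 97 to 87 and 78 to 69 bases before that of *Cxcl2*. Neither window held the interferon or the STAT6 motif in these letters. *Cxcl2* was far more widely read, in 1255 cells against 158 for *Cxcl1*. Of the *Cxcl1* cells, 70.9% also had *Cxcl2* reads, while 8.92% of the *Cxcl2* cells had *Cxcl1* reads.

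*Cxcl1* was 53.0 CPM in WT sham, 74.1 in CD3ϵ-/- sham, 11.4 in WT TAC, 52.8 after TAC in CD3ϵ-/- mice and 16.9 in CD8-depleted TAC. The level of WT TAC and CD8-depleted TAC was low, and the counting intervals of WT sham and CD3ϵ-/- TAC overlapped. The source cells differed between these groups. Cells with 3 or more fibroblast markers (*Col1a1*, *Dcn*, *Pdgfra* and *Col3a1*), which a CD45+ selection is meant to leave out, numbered 12, 13, 4, 5 and 4 and held 41.4%, 49.5%, 2.44%, 0.473% and 7.40% of the *Cxcl1* reads. All 4 markers were read in each group, and their sum was 633, 574, 123, 227 and 310.4 CPM. Without these cells *Cxcl1* was 31.9, 38.2, 11.1, 53.0 and 15.8 CPM. In CD3ϵ-/- TAC, 66.0% of the reads came from 12 *Saa3* cells, and without the *Saa3* class *Cxcl1* was 19.1 CPM there and 7.99 CPM in CD8-depleted TAC. The 5 genes most like *Cxcl1* over the cells, *Lama2* (r = 0.36), *Fbln1*, *Gsn*, *Dpep1* and *Dcn* (0.34 each), were read in 34 to 48 cells and include genes of the fibroblast matrix.

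*Cxcl2* was 849 CPM in WT sham, 1583 in CD3ϵ-/- sham, 847 in WT TAC, 1126 after TAC in CD3ϵ-/- mice and 774 in CD8-depleted TAC. CD3ϵ-/- sham was highest, and the counting intervals of WT sham and WT TAC overlapped. A read was found in 18.3%, 24.4%, 24.0%, 31.2% and 21.7% of the cells, and after thinning in 20.1%, 27.0%, 25.5%, 32.7% and 22.5%, against 2.24% of the B cell marker cells. The other *Csf1r Lyz2* class gave 53.6% of the reads, at 1227, 2503, 928.5, 1065 and 868 CPM. The level was 3458 CPM in the *Saa3* class, with a read in 25 of 30 cells, 2060 CPM in the *Retnla* class and 1225 CPM in the *Ly6c2* class. In the *Ly6c2* class it was 3715, 1238, 1617, 1034 and 624 CPM, of which the first rests on 23 cells. The 53 cells with 3 or more neutrophil markers were at 11418 CPM and held 6.21% of the reads. In the other *Csf1r Lyz2* class, the 676 cells with *Cxcl2* had *Nfkbia* at 914 CPM against 284.5 in the 1891 cells without, *Nfkbiz* at 543 against 234, *Il1b* at 890.3 against 299.8 CPM. *Nfkbia* and *Nfkbiz* are targets of NF-kB. The genes listed for the response to tissue digestion moved with *Cxcl2* as well, namely *Fos* at 4366 against 2261, *Jun* at 1557 against 1099.5, *Egr1* at 1669 against 1061 and *Atf3* at 838.5 against 331.5 CPM. The heat shock gene *Hspa1a* of that list was 271 against 313 CPM and was read in 40.1% against 27.2% of the cells. The part of digestion was not tested. The genes most like *Cxcl2* were *Ccrl2* (r = 0.40), *Clec4e* (0.37), *Osm* (0.37), *Atf3* (0.37) and *Pim1* (0.36).

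**Figure D4:**
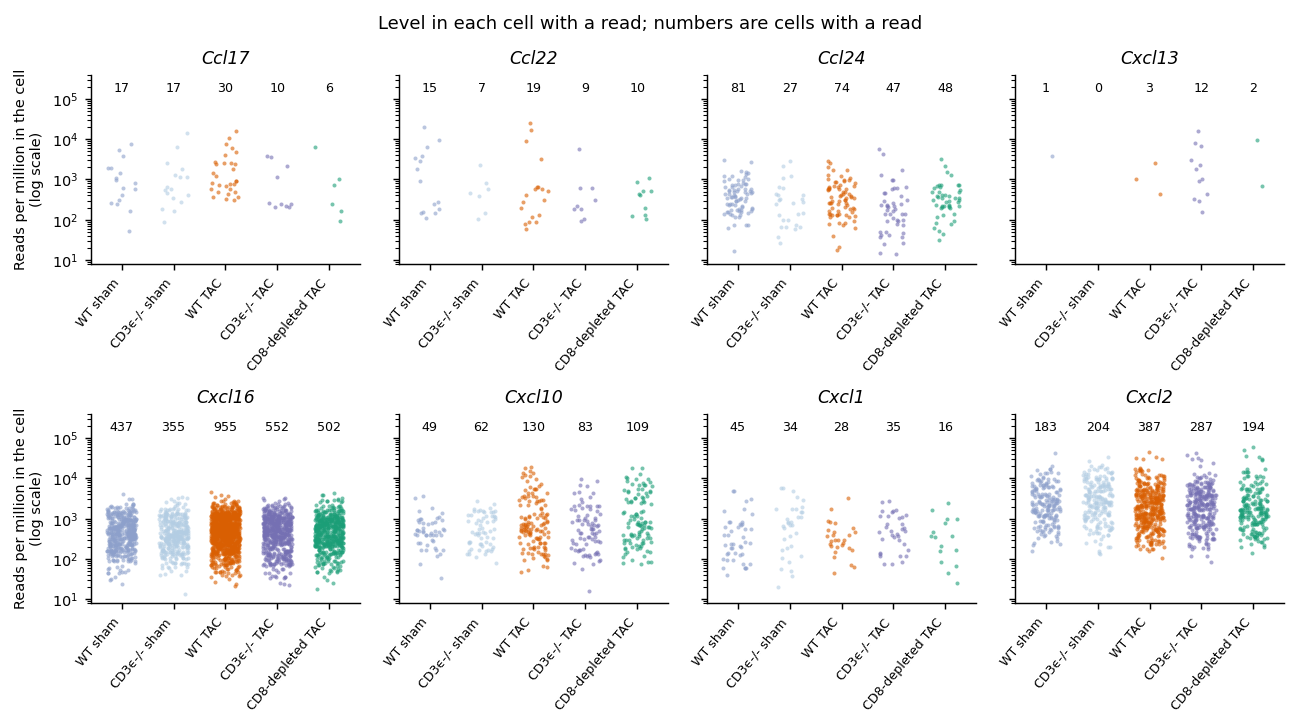
CPM of each chemokine in the single cells with a read, by hashtag group on a log axis, with the number of these cells above each column. *Cxcl13* has 0 to 12 cells per group and *Ccl22* 7 to 19, against 355 to 955 for *Cxcl16*.

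The comparisons between groups were made as log2 ratios of summed CPM with 10 CPM added to both, which understates the change of low genes, and called at 2-fold or more. The comparisons share groups and are not independent of each other. As the genes had been selected on these values, counts are printed beside the share of all 7597 tested genes (at least 20 CPM in 1 or more groups) and nothing is read from them. For WT TAC against WT sham, *Ccl17* (log2 ratio 1.07, interval 1.02 to 1.13) and *Cxcl10* (1.63, 1.59 to 1.68) were called higher and *Cxcl1* (-1.56, -1.62 to -1.495) lower, where 0.987% of all genes were higher and 1.93% lower. *Cxcl16* was at 0.71, *Ccl22* at -0.41, *Ccl24* at -0.47, *Cxcl13* at -0.10 and *Cxcl2* at 0.00. *Cxcl1* was not called without the fibroblast marker cells, and *Ccl17* was not called by the mean of single-cell CPM. *Ccl22* was called lower without the activated dendritic marker cells.

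For CD3ϵ-/- TAC against CD3ϵ-/- sham, *Cxcl13* was called higher, where 1.99% of all genes were higher and 1.92% lower. Its log2 ratio of 3.71 was taken against 0 reads and depends on the added 10 CPM. *Cxcl16* was at 0.86, *Cxcl10* at 0.54, *Ccl24* at 0.47, *Ccl22* at 0.18, *Cxcl1* at -0.42, *Cxcl2* at -0.49 and *Ccl17* at -0.78. *Ccl17* was called lower when the top cell of each group was left out, and *Cxcl1* when the *Saa3* class was. For CD3ϵ-/- sham against WT sham, *Ccl22* (-1.80, -1.88 to -1.73) was called lower and no gene higher, where 0.184% of all genes were higher and 0.487% lower. Among cells with *Csf1r* and *Lyz2* at the gate levels alone, the ratio of *Ccl22* was 0.86, the opposite direction. This value rests on few cells. In the *Retnla* and the other *Csf1r Lyz2* class, *Ccl22* was read in 1 and 0 cells of WT sham, and in 2 and 2 cells of CD3ϵ-/- sham. *Cxcl2* was at 0.89, *Ccl17* at 0.66, *Cxcl10* at 0.57, *Cxcl1* at 0.42, *Cxcl16* at -0.20, *Ccl24* at -0.57 and *Cxcl13* at -0.60.

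For CD3ϵ-/- TAC against WT TAC, *Cxcl13* (3.21, 3.16 to 3.26) and *Cxcl1* (1.55, 1.495 to 1.61) were called higher and *Ccl17* (-1.20, -1.25 to -1.15) and *Ccl22* (-1.21, -1.27 to -1.15) lower, where 0.461% of all genes were higher and 0.276% lower. *Cxcl1* was not called without the *Saa3* class. Without the activated dendritic marker cells *Ccl22* was not called either, but only because both levels were then below the added 10 CPM, since it was 1.10 against 6.80 CPM, 6.21-fold lower, beside 3.09-fold with all cells. *Cxcl2* was at 0.41, *Ccl24* at 0.37, *Cxcl16* at -0.04 and *Cxcl10* at -0.53. For the group labelled CD8-depleted TAC against WT TAC, *Cxcl13* (1.13) was called higher and *Ccl17* (-2.45, -2.51 to -2.39) and *Ccl22* (-1.72, -1.79 to -1.66) lower, where 0.29% of all genes were higher and 0.079% lower. The *Cxcl13* ratio was -0.11 without the top cell of each group, so its direction rests on 1 cell, and without the activated dendritic marker cells *Ccl22* was not called, at 6.70 against 6.80 CPM. *Cxcl10* was at 0.63, *Cxcl1* at 0.33, *Cxcl2* at -0.13, and *Ccl24* and *Cxcl16* at -0.15. The median log2 ratio of the 8 genes was -0.05, 0.32, 0.11, 0.16 and -0.14 in the order of these comparisons, and that of all tested genes 0.02, 0.03, -0.02, -0.01 and 0.01.

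How far the reads rest on single cells set the genes apart from each other. Over all groups the top cell held 27.7% of the *Ccl22* reads, 23.5% of *Cxcl13*, 17.6% of *Ccl17*, 9.84% of *Cxcl1*, 7.31% of *Ccl24*, 3.25% of *Cxcl10*, 0.928% of *Cxcl2* and 0.453% of *Cxcl16*. Among the 536 tested genes of the same first rows of the matrix, which lack low values in the same way, the median was 1.33% and the 95th percentile 15.2%, and 3 of the 8 genes were above the latter. Over all 7597 tested genes the median was 0.542%. The 10 cells with the most reads held 93.2% of *Cxcl13*, 82.1% of *Ccl22* and 59.6% of *Ccl17*, but 3.14% of *Cxcl16*. The top cell of *Cxcl1* and of *Cxcl2* was a *Saa3* cell of CD3ϵ-/- TAC with 1513130 reads, the depth of which is far above the median.

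**Figure D5:**
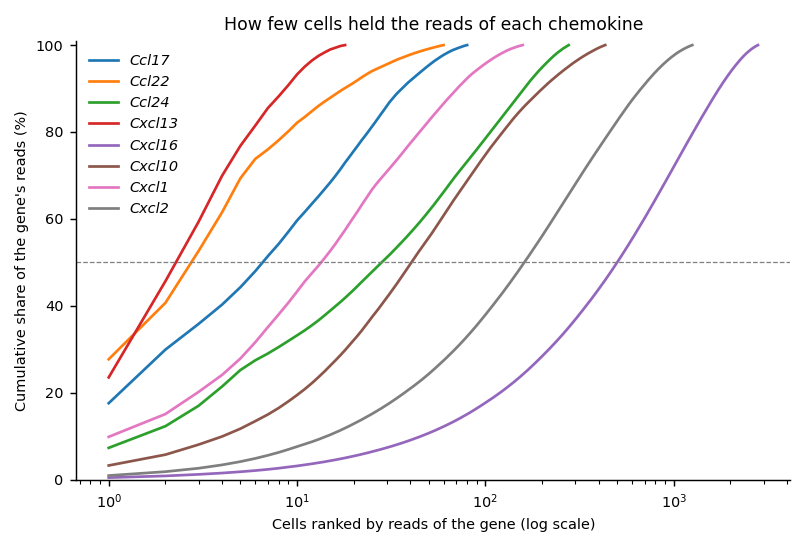
Cumulative share of the reads of each chemokine against the number of cells, ranked by their reads, over all groups. At least 50% of the reads came from 3 cells for *Ccl22* and *Cxcl13*, 7 for *Ccl17*, 14 for *Cxcl1*, 29 for *Ccl24*, 41 for *Cxcl10*, 162 for *Cxcl2* and 502 for *Cxcl16*.

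The receptors of these chemokines were low in a sample made mainly of monocytes and macrophages, and 3 of the 6 passed the limit of 20 CPM. *Cxcr6*, the receptor of Cxcl16, was 45.7, 11.3, 6.51, 0.948 and 13.8 CPM, and was called lower in WT TAC and in CD3ϵ-/- sham, each against WT sham. It was highest in cells with markers of innate lymphoid cells (331 CPM) and of T or NK cells (245 CPM). *Cxcr3*, the receptor of Cxcl10, was 18.8, 6.14, 22.7, 7.10 and 16.3 CPM, lower in both CD3ϵ-/- groups. *Cxcr5*, the receptor of Cxcl13, was 13.4, 17.1, 5.13, 9.06 and 9.02 CPM and was at 218 CPM in B cell marker cells. *Cxcr2* was 13.0, 19.6, 18.6, 20.4 and 40.8 CPM. *Ccr4* and *Ccr3* were under 2 CPM in every group.

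Genes of the same pathways gave a background to these values. The 4 interferon response genes *Ifit2*, *Rsad2*, *Isg15* and *Irf7* were all called higher after TAC in WT and in CD3ϵ-/- mice, with a median log2 ratio of 2.16 and 2.45, and none was called in the other comparisons. Of the 4 NF-kB response genes, *Nfkbiz* was called lower after TAC in both genotypes and *Tnf* in CD3ϵ-/- mice, while *Il1b* was called higher in CD3ϵ-/- sham than in WT sham. Of the 5 genes of the dissociation response, *Egr1* and *Hspa1a* were lower after TAC in both genotypes, and *Atf3* in CD3ϵ-/- mice. Of the 30 other chemokine genes in the matrix, 14 were tested. *Ccl8* and *Cxcl9* were called higher after TAC in both genotypes. *Ccl8*, a ligand for monocytes, was 6.34, 0.696, 31.0, 23.9 and 11.5 CPM, and *Cxcl9*, which shares Cxcr3 with Cxcl10, was 9.75, 15.8, 31.6, 45.3 and 32.8 CPM. *Ccl12* was called higher in CD3ϵ-/- TAC than in CD3ϵ-/- sham (250 against 64.6 CPM), and *Ccl3* (193 against 418 CPM) and *Ccl4* (166 against 362 CPM) lower. *Xcl1*, *Ccl21a* and *Cxcl5* were called lower both in WT TAC and in CD3ϵ-/- sham, each against WT sham, and *Ccl5* in the latter. None was called in CD3ϵ-/- TAC or CD8-depleted TAC against WT TAC.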

How the data were processed

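CD45+ heart cells of 5 hashtag groups were sequenced in 1 pooled library. The deposited values were raw counts, namely whole reads for each gene in each cell, which the authors had corrected for errors and not normalized. The submitters' processing notes name GRCm38, cutadapt 2.10 and Bowtie2 2.4.2. The hashtag of each group was taken from the deposited notes. Of 5363 columns, 8 without a hashtag and 40 labelled doublets (fewer than the share stated in the deposited notes, so others may remain) were left out, as were cells with under 500 genes or a mitochondrial share above 0.4, which left 5263 cells.

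Reads were summed per group and class, divided by the total and multiplied to CPM with Python 3.11.15, numpy 2.4.6, scipy 1.17.1 and pandas 2.3.3, and plotted with matplotlib 3.10.9. Groups held 91899777 to 208758777 reads and were 1 sample each, so there was no test, and Poisson and Clopper-Pearson intervals of 95% cover counting error only. The steps were tested on simulated data. Likeness was Pearson's r of log2(CPM + 10) over all kept cells, among genes read in 20 or more cells, and marker cells had 3 or more markers of a list at 50 CPM. The named genes were the 8 chemokines, their receptors, the other chemokines called in the comparison described, listed genes of the interferon, NF-kB, dissociation and IL-4 responses and the 5 most alike genes of each. Genes and lists were chosen with earlier results of these data known. Promoters came from RefSeq (GRCm38.p6), which held 6 of the 8 and lacked those of *Ccl24* and *Cxcl16*. The window of *Cxcl13* is not shown. It held a stretch that matched the NF-kB motif on either strand, 63 to 54 bases before the start. Alternatives were the added CPM, the cell filters, the gates, the scaling, and leaving out top cells or marker cells.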

Additional observations from a re-analysis of the deposited data

Results flagged for a closer look

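The 40 cells that the authors called doublets were in no comparison, and 5 chemokines were above the level of WT sham in them. *Ccl17* was at 401 CPM with a read in 3 of these cells, *Cxcl10* at 545 CPM with 5, *Cxcl1* at 131 CPM with 7 and *Cxcl2* at 1346 CPM with 14, and *Cxcl16* was at 389.7 CPM. The level of *Cxcl2* was below that of CD3ϵ-/- sham (1583 CPM), and that of *Cxcl16* was close to WT TAC (385 CPM).

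The ratio of TAC to sham pointed in opposite directions in CD3ϵ-/- and WT mice for 4 chemokines when all kept cells were summed. The CD3ϵ-/- log2 ratio less the WT log2 ratio was -1.86 for *Ccl17*, 0.59 for *Ccl22*, 0.94 for *Ccl24* and 3.81 for *Cxcl13*. With 1 sample per group these differences were not tested. Without the top cell of each group, the directions of *Ccl22* (-0.69 in WT and -0.60 in CD3ϵ-/- mice) and of *Cxcl13* (0.31 and 3.27) were no longer opposite, while those of *Ccl17* and *Ccl24* were.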

How the results depend on the processing

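Of 132 values of the 12 called ratios under 11 alternatives, of which 3 were chosen after seeing the data, 129 kept their direction. *Ccl22* in CD3ϵ-/- sham against WT sham was 0.86 among cells with *Csf1r* and *Lyz2* alone, where few cells had a read. *Cxcl13* in CD8-depleted TAC against WT TAC was -0.11 without top cells and -0.30 without the *Saa3* class. With 50 CPM added in place of 10, the number of chemokines called was 1 in place of 3 (WT TAC against WT sham), 0 in place of 1 (CD3ϵ-/- sham against WT sham), 1 in place of 4 (CD3ϵ-/- TAC against WT TAC) and 1 in place of 3 (CD8-depleted TAC against WT TAC). For CD3ϵ-/- TAC against CD3ϵ-/- sham it was 2 in place of 1 without top cells, by the mean of single-cell CPM, without activated dendritic marker cells or without the *Saa3* class, and 3 among *Csf1r Lyz2* cells. For CD3ϵ-/- sham against WT sham it was 2 with 1 CPM added or by the mean of single-cell CPM. The share of all tested genes called under these alternatives was not computed, so nothing is read from these counts. The class with most reads stayed the same for 6 to 8 of the 8 genes. *Cxcl1* changed to the *Saa3* class (29.8%) with halved gates and to cells outside the gates with doubled gates (29.9%), without top cells (33.5%) or by the mean of single-cell CPM (33.2%), and *Ccl17* to other *Csf1r Lyz2* cells (32.4%) with another gate order and to cells outside the gates (37.2%) without top cells. No paired analysis was possible because each group was 1 sample. Depth limits each value that rests on a few cells, and a value of 0 may hide reads removed in error correction.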
